A study of Mus musculus with 5 samples.

Results

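Transfer RNA (tRNA) genes near KLF5 binding sites were examined in mouse embryonic stem (ES) cells. The regions described are peaks of a V5 chromatin immunoprecipitation (ChIP-seq) library whose summit, the base of highest coverage, lay within 10 kb of a tRNA gene of the RefSeq annotation on chromosomes 1 to 19. This rule found 284 of the 44760 summits on those chromosomes (0.634%, exact Clopper-Pearson 95% interval 0.563 to 0.712), out of 45378 peaks in all. Of these, 127 lay within 1 kb of the tRNA gene and 157 lay 1 to 10 kb away. A protein-coding gene end lay within 1 kb of 38 of the 127 and of 43 of the 157. The rule used positions only, so peak strength was free to differ.

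The study overexpressed KLF5, a zinc-finger transcription factor, with a V5 peptide tag in wild-type ES cells from C57B6/J mice. It sequenced an anti-V5 precipitate, a normal mouse IgG precipitate and input DNA of these cells, and an anti-V5 precipitate and input of untagged wild-type ES-D3 cells, an established mouse ES line. Each of these 5 groups is 1 library, so no value here has a replicate check, and the intervals given cover counting error only. The promoter that drives the transgene and whether the cells are 1 clone were not stated in the labels.

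tRNA genes are short genes transcribed by RNA polymerase III (Pol III). Their promoter lies inside the gene, in an A box and a B box that the factor TFIIIC binds. TFIIIC places TFIIIB, which contains the TATA-binding protein, just upstream, and TFIIIB recruits the polymerase. KLF factors are Pol II regulators known for binding GC-rich and CACCC-type sequences through their zinc fingers. In mammals tRNA genes lie singly or in clusters, and the largest clusters share chromosome regions with replication histone genes.

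The annotation gave 386 tRNA genes on chromosomes 1 to 19, 70 to 107 bp long with a median of 72 bp. Their symbols name the amino acid in 1 letter and the anticodon, so that n-TRtcg5 is an arginine tRNA gene with anticodon TCG. The sequence tables held the whole of 4 of these genes, because each lies in the promoter window of another gene (RefSeq, GRCm38.p6). They are shown so that the small size of the target and its internal promoter can be seen, written 5′ to 3′ in the tRNA direction, with the match to the B-box consensus in capitals. The consensus was searched on both strands, and 0.701% of 31365 promoter windows (the 250 bases before a gene start) hold it.
n-TVcac9, chr13:23446142-23446214, - strand: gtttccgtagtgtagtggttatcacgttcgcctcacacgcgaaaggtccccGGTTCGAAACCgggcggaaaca
n-TRtcg5, chr7:79466419-79466491, + strand: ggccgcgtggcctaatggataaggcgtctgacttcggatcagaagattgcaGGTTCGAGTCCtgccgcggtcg
n-TAagc16, chr13:21222586-21222657, + strand: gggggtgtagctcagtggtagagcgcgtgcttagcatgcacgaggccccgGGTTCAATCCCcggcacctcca
n-TTagt9, chr7:35234770-35234843, - strand: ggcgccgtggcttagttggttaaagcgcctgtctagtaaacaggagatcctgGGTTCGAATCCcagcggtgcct
The valine gene n-TVcac9 had a V5-KLF5 summit at 297 bp with a fold enrichment of 8.48. Fold enrichment is the authors' ratio of (pileup + 1) to (input background + 1) at the summit, and pileup is the number of extended tags there. The arginine gene n-TRtcg5 lies inside the mitochondrial DNA polymerase gene Polg, 1420 bp from its nearest end and in its RefSeq promoter window, and had a summit at 404 bp with 5.61. Promoter windows follow starts that can differ from the gene ends used for distances, so some, like this one, lie inside the gene bounds. The alanine gene n-TAagc16 had its nearest summit at 2719 bp with 8.48, and the threonine gene n-TTagt9 at 19277 bp, outside the 10 kb limit. All 4 genes carry the box, and only 2 of them had a summit within 1 kb.

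Sequences of promoter windows that hold a summit within 1 kb of a tRNA gene show the DNA at 15 of the 127 such summits. All of these lie just before a gene start, so the other summits are not covered. The 250 bases before a gene start held such a summit in 16 windows (15 summits, since H4c8 and Gm11335 share one), 11 of coding and 5 of noncoding genes. A KLF-type pattern, CCNCNCCC or its reverse GGGNGNGG, occurred in 12 of the 16 (75.0%), beside 46.2% of all 31365 windows of either gene type and 77.8% of the 5084 windows with any V5-KLF5 summit. Overlapping matches were merged in print. The 5 windows with the strongest peaks, all of coding genes, are given, 5′ to 3′ in the direction of the coding gene, with matches in capitals.
Plekhg2, chr7:28372663-28372912, - strand: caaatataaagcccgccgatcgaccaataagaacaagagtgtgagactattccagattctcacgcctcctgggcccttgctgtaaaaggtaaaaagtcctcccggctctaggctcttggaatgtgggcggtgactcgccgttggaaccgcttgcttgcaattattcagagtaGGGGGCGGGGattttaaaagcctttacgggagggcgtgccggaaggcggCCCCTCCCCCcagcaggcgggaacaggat
Elf1, chr14:79480944-79481193, + strand: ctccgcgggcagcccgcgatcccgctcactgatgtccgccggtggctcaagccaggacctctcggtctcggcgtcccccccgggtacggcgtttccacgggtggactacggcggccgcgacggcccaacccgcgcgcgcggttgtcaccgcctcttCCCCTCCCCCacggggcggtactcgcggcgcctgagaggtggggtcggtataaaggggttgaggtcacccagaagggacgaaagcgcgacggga
Rab11a, chr9:64737757-64738006, - strand: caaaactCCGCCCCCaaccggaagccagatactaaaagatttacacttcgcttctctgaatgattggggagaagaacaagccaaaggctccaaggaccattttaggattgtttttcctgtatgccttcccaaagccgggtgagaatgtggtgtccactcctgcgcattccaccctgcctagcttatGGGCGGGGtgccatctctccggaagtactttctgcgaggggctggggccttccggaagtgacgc
Fmc1, chr6:38534611-38534860, + strand: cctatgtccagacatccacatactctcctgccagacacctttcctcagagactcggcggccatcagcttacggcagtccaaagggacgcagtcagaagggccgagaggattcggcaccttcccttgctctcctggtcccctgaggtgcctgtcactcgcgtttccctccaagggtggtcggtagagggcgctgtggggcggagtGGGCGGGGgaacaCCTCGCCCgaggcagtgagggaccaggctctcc
Polr3e, chr7:120917528-120917777, + strand: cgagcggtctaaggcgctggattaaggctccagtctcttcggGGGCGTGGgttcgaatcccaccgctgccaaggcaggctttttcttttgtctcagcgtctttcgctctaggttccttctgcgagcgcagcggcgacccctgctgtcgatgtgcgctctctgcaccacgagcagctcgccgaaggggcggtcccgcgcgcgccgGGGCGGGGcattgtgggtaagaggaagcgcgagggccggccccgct
In the Plekhg2 window the summit lay at base 162, counted from the 5′ end, and 11 bp from the nearest match. At Elf1 it lay at base 171, 5 bp from a match, at Rab11a at base 195, 1 bp from a match, and at Fmc1 at base 236, 11 bp from a match. The Polr3e window begins inside a leucine tRNA gene, n-TLaag4, and holds 71 of its bases. Polr3e encodes a subunit of Pol III itself. There the summit lay at base 105, 34 bp from the tRNA gene, 146 bp from the Polr3e end and 55 bp from the nearest match, with a pileup of 29 and a fold enrichment of 7.32. That nearest match lies within the 71 bases of the tRNA gene, and its last base begins a sequence that matches the B-box consensus. At Fmc1 the peak had a fold enrichment of 8.01, with n-TRcct1 at 843 bp. Of the windows not printed, those of Sacm1l, Ndufs7, BB557941 and Trmt61b held no match. Their summits lay 18, 128, 208 and 471 bp from a tRNA gene. In the rest the nearest match was 4 bp (Ppp6r3) to 146 bp (Knl1) from the summit. The Knl1 summit lay 92 bp from n-TSgct7. A match describes letters only.

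Summits gathered tightly at tRNA genes. Of the 127 within 1 kb, 53 (41.7%, interval 33.0 to 50.8) lay within 100 bp of the gene, 74 within 250 bp and 105 within 500 bp, with a median of 212 bp, and 11 lay inside a tRNA gene. The next kilobases out held 11 to 24 summits each. Peaks are wider than tRNA genes, and 87 of the 127 peaks overlapped a tRNA gene while 76 covered 1 in full. A summit could lie near several tRNA genes, since 40 of the 127 summits had 2 or more tRNA genes within 1 kb. The 127 summits belonged to 111 nearest tRNA genes, of which 95 had 1 summit and 16 had 2. The table gives no strand for tRNA genes, so sides of the gene were not separated.

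**Figure D1:**
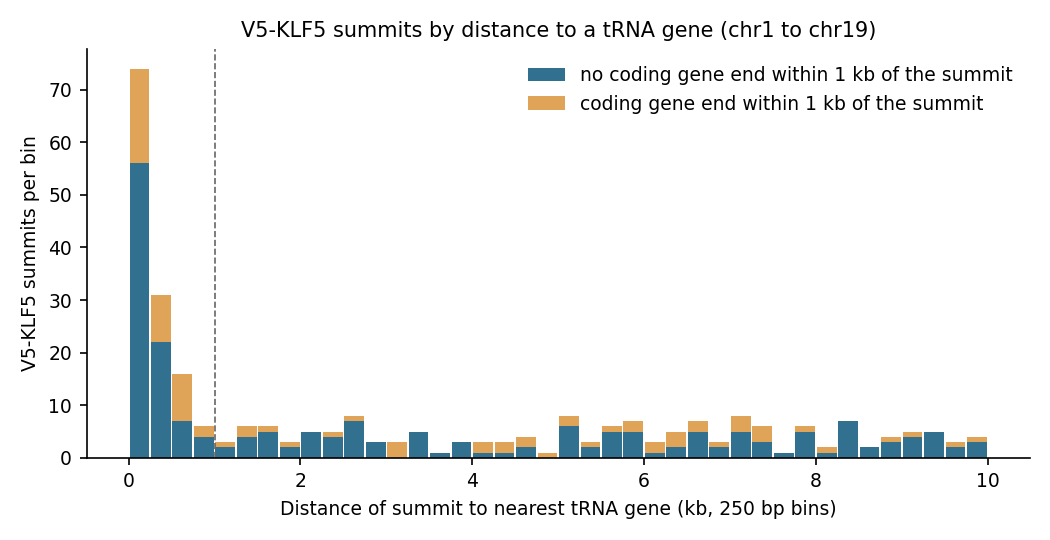
Number of V5-KLF5 summits (vertical axis) per 250 bp of distance to the nearest tRNA gene (horizontal axis, kb), split by whether a protein-coding gene end lay within 1 kb of the summit. The first bin holds 74 summits, and the dashed line marks 1 kb.

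Over the merged windows around all tRNA genes, summit density was 200.2 per Mb within 1 kb (exact Poisson interval 167 to 238, 0.634 Mb). It was 52.4 per Mb from 1 to 10 kb (44.5 to 61.3, 2.997 Mb) and 40.2 per Mb from 10 to 100 kb (37.6 to 43.0, 21.7 Mb). The innermost window thus held 4.98 times the density of the surrounding 100 kb. The gradient was also present among summits without a coding end within 1 kb. Their density was 140 per Mb within 1 kb, 38.0 from 1 to 10 kb and 25.9 from 10 to 100 kb, a ratio of 5.41. These densities use the whole windows, with the DNA near coding ends left in. Over all summits, with or without a coding end, density was 348 per Mb up to 250 bp, 202 from 250 to 500 bp and 81.9 from 500 bp to 1 kb. Without a coding end these 3 values were 263, 144 and 41.0. From 1 to 2 kb the density of all summits was 38.6 per Mb. From 5 to 10 kb it was 65.0 (52.6 to 79.5), above its neighbours at 2 to 5 kb (41.1) and 10 to 20 kb (42.6). The interval of 5 to 10 kb overlaps that of 2 to 5 kb (29.9 to 55.2) and lies just above that of 10 to 20 kb (35.0 to 51.4).

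Neither control list held a peak near a tRNA gene. The IgG precipitate of the same cells had 3 peaks on these chromosomes and the V5 precipitate of untagged cells had 0, with 0 within 10 kb of a tRNA gene in both. Depth was similar, with 28.8 M tags in the V5-KLF5 library, 31.9 M in the IgG library and 28.2 M in the untagged V5 library. These lists hold called peaks only, so control signal below the calling threshold at tRNA genes was not analysed here. The file header of the untagged library names another ES line (JM8.N4) than its label, so its cell line is uncertain.

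Most peaks at tRNA genes lay in the lower part of the list. The 127 peaks within 1 kb had a median fold enrichment of 4.49 (quartiles 3.83 and 6.58), with a range from 2.68 to 37.1, beside a median of 5.18 (quartiles 4.15 and 7.48) for all peaks on these chromosomes. Of the 127, 50 reached the median of all peaks. A fold enrichment of at least 10 was reached by 14 of the 127 (11.0%, interval 6.16 to 17.8), beside 13.0% of all peaks, which is near the background. At least 5 was reached by 54 (42.5%, interval 33.8 to 51.6), beside 53.8%. The median pileup was 22, beside 24. The order against all peaks depended on the weak peaks of the list: among peaks with a −log10 q of at least 10 the 47 that remained within 1 kb had a median of 7.81, beside 7.59 for all.

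Within 1 kb, peaks with and without a coding end had overlapping values. The 89 without a coding end had a median fold enrichment of 4.44 (95% interval of the median over peaks 4.14 to 4.99), beside 5.12 for all peaks without a coding end. The 38 with a coding end had a median of 5.15 (3.90 to 6.83), beside 5.60 for all peaks with one. At least 10 was reached by 7 of the 89 (7.87%, interval 3.22 to 15.5), beside 12.5% of all peaks without a coding end. It was reached by 7 of the 38 (18.4%, interval 7.74 to 34.3), beside 14.6% of all peaks with one. These intervals overlap, and each includes its share over all peaks. Closest to the gene, peaks within 250 bp had a median of 4.32, and those from 250 bp to 1 kb 5.06. The 157 peaks from 1 to 10 kb were like the list as a whole, with a median of 5.12. It was 5.15 for the 114 without a coding end and 4.77 for the 43 with one.

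**Figure D2:**
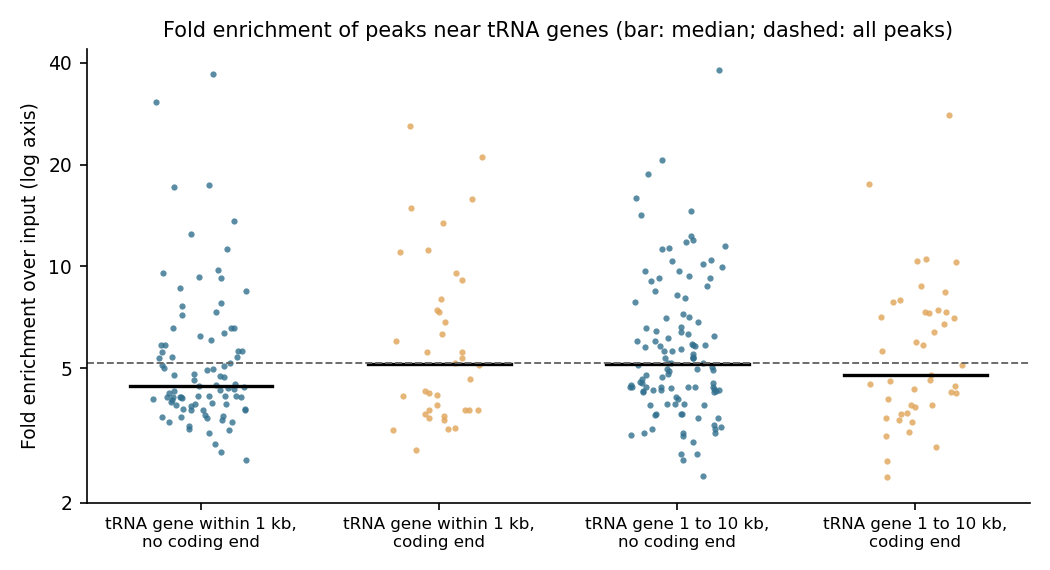
Fold enrichment over input (vertical log axis) of each of the 284 peaks, in 4 classes by distance to a tRNA gene and by a coding gene end within 1 kb. Black bars are class medians (4.44, 5.15, 5.15 and 4.77 from left to right), and the dashed line is the median of all peaks, 5.18.

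A coding end lay within 1 kb of 29.9% of the summits within 1 kb of a tRNA gene (interval 22.1 to 38.7) and of 27.4% of those at 1 to 10 kb (interval 20.6 to 35.1). Both shares are near the 26.5% of all summits. The 38 summits lay at 30 coding genes, and 11 of them lay inside the gene bounds. Seen from the tRNA genes, 36 of the 47 with a coding end within 1 kb had a summit within 1 kb (76.6%, interval 62.0 to 87.7). Of the other 339, 107 had one (31.6%, interval 26.6 to 36.8).

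The input background differed at these sites and is given beside the fold enrichments. The background recovered from pileup and fold enrichment had a median of 3.83 under the peaks within 1 kb and 3.45 under all peaks. It stood on the genome-wide floor of 3.10 in 20 of 127 (15.7%, interval 9.89 to 23.3), beside 36.5% of all peaks. The recovered background was thus above the floor for most of these peaks, and its part in their low fold enrichment was not tested. Input coverage under the peak itself was not measured. The highest backgrounds among all 284 were 7.67 under the peak 7422 bp from n-TSgga1, with a fold enrichment of 3.46, and 6.90 under 5 peaks. Of these 5, the peaks at 7405 bp from n-TRtcg5, 1784 bp from n-TGgcc4, 1063 bp from n-TNgtt14 and 80 bp from n-TStga3 reached 2.40, 2.78, 2.78 and 3.29-fold. The one at 405 bp from n-TAtgc5 reached 11.3-fold. Without peaks above the 95th percentile of background (6.13), 122 summits remained within 1 kb.

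Strong peaks away from coding genes were few. The strongest within 1 kb lay on chromosome 7 at 98816055 to 98817052, 557 bp from the proline gene n-TPagg7, with a pileup of 151 and a fold enrichment of 37.1 over a background of 3.10. Its nearest coding end, of the signalling ligand gene Wnt11, was 18780 bp away. On chromosome 5 at 149228840 to 149229659, a peak 106 bp from the asparagine gene n-TNgtt14 had a pileup of 153 and a fold enrichment of 30.6, with the nearest coding end, of Uspl1, 13746 bp away. A second, weak summit lay 1063 bp from the same tRNA gene, just outside 1 kb, with 2.78. These 2 strong peaks stood well above the rest of the class.

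The next peaks of this class fell to 17.5 and below. At the histidine gene n-THgtg3 on chromosome 2 (122377210 to 122377729), a summit at 39 bp had a fold enrichment of 17.5 and a pileup of 75. Its neighbours n-THgtg5 and n-THgtg4 had summits at 78 and 63 bp with 4.72 and 4.61, so all 3 histidine genes of this locus carried one. The isoleucine gene n-TIaat17 on chromosome 17 had 2, with 17.2 at 729 bp and 9.21 at 128 bp. The lysine gene n-TKctt17 had 13.6 at 946 bp, with the proteasome gene Psma3 at 1109 bp, just beyond the coding limit. Isoleucine gene n-TIaat6 had 12.5 at 108 bp and alanine gene n-TAtgc5 had 11.3 at 405 bp, the latter over a raised background of 6.90. The tryptophan gene n-TWcca5 (9.73 at 236 bp), the arginine gene n-TRccg1 (9.53 at 1 bp), the phenylalanine gene n-TFgaa4 (9.32 at 44 bp) and the glycine gene n-TGgcc7 (8.65 at 488 bp) completed the first 12. Amino acids were thus mixed among the strongest sites.

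Where a coding end was also within 1 kb, the summit lay nearer to that end than to the tRNA gene at 6 of the 8 strongest sites. At Plekhg2 the peak on chromosome 7 at 28372061 to 28373507 had a pileup of 106 and a fold enrichment of 26.1. Its summit was 70 bp from the gene end and 248 bp from n-TIaat16. At Rnase4, a ribonuclease gene, the summit was 18 bp from the end and 377 bp from n-TPtgg5, with 21.1 and a pileup of 117. The ETS factor gene Elf1 had 15.8 at 60 bp, with n-TEttc4 at 554 bp. Tmpo, a nuclear lamina protein gene, had 14.9 at 39 bp, with n-TDgtc16 at 306 bp, and Rab11a, a recycling endosome GTPase gene, had 13.4 at 56 bp, with n-TQctg9 at 234 bp. At Lasp1, an actin-binding protein gene, the distances were 699 and 727 bp, with 11.0 at n-TCgca51.

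Hes7, a repressor gene of the segmentation clock, had 11.2 at 860 bp, 748 bp from n-TGgcc5. That summit was nearer to the tRNA gene than to the coding end. In the eighth, at the zinc-finger gene Mynn, the summit lay 23 bp from n-TVaac8 and 722 bp from the coding end, with 9.55.

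At 1 to 10 kb the strongest peaks were as high as those close by. The highest of all 284, with a pileup of 191 and a fold enrichment of 38.2, lay 7856 bp from the glycine gene n-TGgcc1 on chromosome 4 (133120789 to 133122950) and 8109 bp from the actin regulator gene Wasf2. The peak inside the ubiquitin ligase gene Trim7, 832 bp from its end and 3169 bp from n-TGacc1, had 28.1. Trim41, a related gene, had 17.6 at 996 bp, 1339 bp from n-TVcac7. A summit 3035 bp from Wnt10a and 9536 bp from n-TGgcc3 had 20.7, and one 1179 bp from Shf and 5168 bp from n-THgtg4 had 18.7. The peak at 9900 bp from n-TRcct1 had 15.9. Summits inside Lasp1 and Mok, at 7247 bp from n-TCgca51 and 7916 bp from n-TIaat6, had 14.6 and 14.2. These tRNA genes each had a summit of their own within 1 kb as well, except n-TGgcc1 and n-TVcac7.

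At the limits of the rule the values were mixed. The outermost summits within 1 kb were those at 946 bp (n-TKctt17, 13.6) and 891 bp (n-TRtct2, 4.09), and the first beyond lay at 1063 bp (n-TNgtt14, 2.78) and 1078 bp (n-TTagt3, 5.89). At 10 kb, 2 summits at 9900 bp (n-TAagc8, 5.71, and n-TRcct1, 15.9) were inside, and summits at 10047 bp (n-TWcca6, 4.82) and 10156 bp (n-TSgga1, 10.2) were outside. The weakest within 1 kb were at n-THgtg2 (2.68 at 362 bp), n-TVtac1 (2.83 at 62 bp) and n-TSgct6 (2.86 at 39 bp), with pileups of 14, 17 and 15.

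Of the 386 tRNA genes, 143 had a summit within 1 kb (37.0%, interval 32.2 to 42.1) and 264 within 10 kb (68.4%, interval 63.5 to 73.0). Protein-coding genes had 52.7% within 1 kb and 71.1% within 10 kb of an end. The other short RNA classes compared here had less. Within 1 kb a summit was found at 15.8% of 1136 microRNA genes (interval 13.7 to 18.0), 6.93% of 924 small nuclear RNA genes (5.37 to 8.76) and 5.49% of 1276 small nucleolar RNA genes (4.30 to 6.88). Of 60 annotated 5S and other ribosomal RNA genes, also repeated copies, 0 had one (upper limit 5.96%). Long noncoding RNA genes had 22.5% of 12322 at an end. A long gene offers a window at each end, a short gene only a single joined window. Among genes with no coding end within 2 kb the order was alike, with 30.2% of 321 tRNA genes (interval 25.2 to 35.6), 13.4% of 9202 long noncoding RNA genes, 9.21% of 901 microRNA genes, 5.25% of 857 small nuclear and 2.69% of 1117 small nucleolar RNA genes. Neighbouring tRNA genes share summits, so these are counts of genes, not of independent sites.

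**Figure D3:**
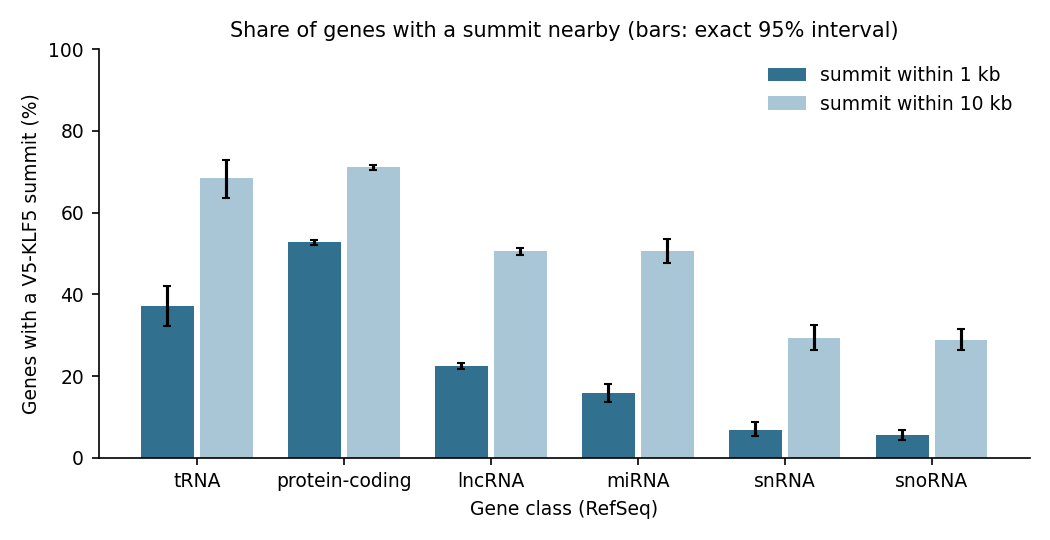
Percentage of genes with a V5-KLF5 summit within 1 kb (dark) and 10 kb (light) for 6 RefSeq gene classes on chromosomes 1 to 19. Error bars are exact Clopper-Pearson 95% intervals, and tRNA genes, at 37.0% within 1 kb, stand between protein-coding genes (52.7%) and the other RNA classes.

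The strongest peak within 1 kb had a median fold enrichment of 4.76 over the 143 tRNA genes that had one, beside 6.13 over the 10844 protein-coding genes that had one. A coding gene was searched around both ends and a tRNA gene in a single joined window, so the lengths searched were unlike. By presence tRNA genes were the closest to coding genes of the RNA classes compared here, and their strongest peaks had a lower median. The 10 other Pol III transcripts listed below were not a separate class here. Of them 7 had a summit within 1 kb (70.0%, interval 34.8 to 93.3), with a median strongest peak of 6.74.

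Chaining tRNA genes separated by at most 10 kb gave 161 loci, of which 85 (52.8%, interval 44.8 to 60.7) had a summit within 1 kb of a tRNA gene. Among the 100 loci of a single gene, 46 had one. Of the 61 loci of 2 or more genes, 39 had one (63.9%, interval 50.6 to 75.8), but only 97 of their 286 genes did (33.9%). In the 6 loci of 10 or more genes the share was 13 of 86 genes (15.1%). These large loci include cysteine clusters described below. They also include a locus of 15 genes on chromosome 1 (171064164 to 171081946), of which 0 had a summit within 1 kb. Summits were spread over many smaller loci.

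All 20 amino acids, and 44 of 48 anticodons, had at least 1 tRNA gene with a summit within 1 kb. The share was highest for tyrosine, with 8 of 10 genes (80.0%, interval 44.4 to 97.5), followed by proline with 10 of 15 (66.7%, 38.4 to 88.2), arginine with 14 of 23 (60.9%, 38.5 to 80.3) and serine with 12 of 22 (54.5%, 32.2 to 75.6). Lowest were cysteine with 6 of 57 (10.5%, 3.96 to 21.5), glutamine with 3 of 15 (20.0%, 4.33 to 48.1) and lysine with 6 of 25 (24.0%, 9.36 to 45.1). The other 13 ran from 28.6% (alanine) to 50.0% (methionine), and their intervals overlap each other. The 10 tyrosine genes lay in 5 loci, so their genes are not separate sites.

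**Figure D4:**
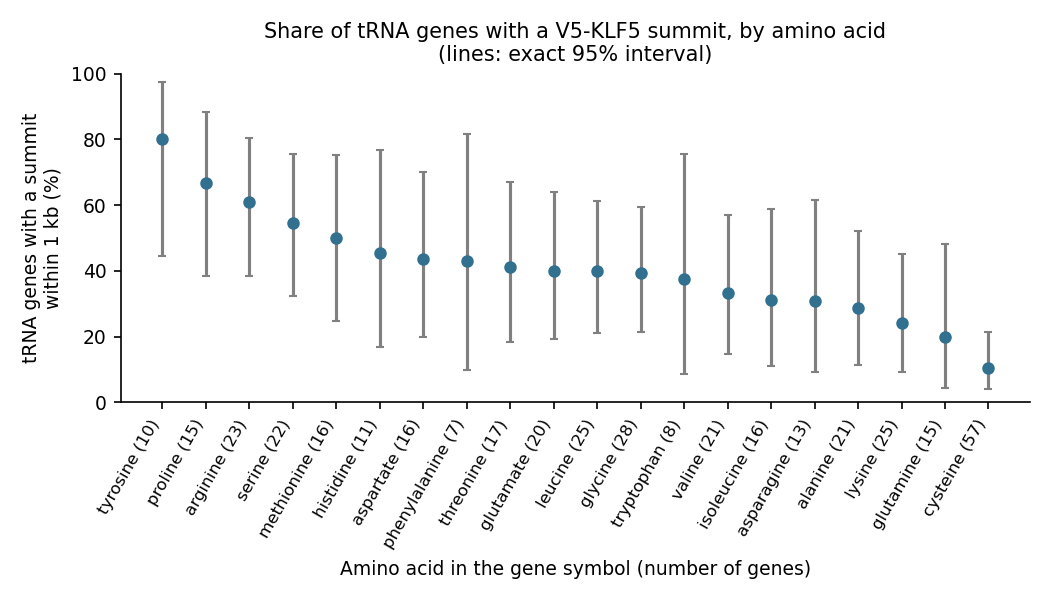
Percentage of tRNA genes with a V5-KLF5 summit within 1 kb, by the amino acid in the gene symbol, with the number of genes in brackets. Lines are exact 95% intervals, and they overlap for most neighbours, with tyrosine at 80.0% and cysteine at 10.5% at the ends.

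The low share of cysteine genes came from chromosome 6. On it lay 49 of the 57, and 1 of these 49 had a summit within 1 kb (2.04%, interval 0.0517 to 10.9), while 5 of the other 8 did. The largest locus of the genome table, 22 cysteine genes over 73.3 kb of chromosome 6, had no summit within 10 kb. Nor did cysteine loci of 10 and 9 genes nearby, while n-TCgca8, a single gene between them, had one at 793 bp with 5.12. Without cysteine genes, 137 of 329 tRNA genes (41.6%) had a summit within 1 kb and 255 (77.5%) within 10 kb. These genes are repeated copies, and the treatment of multiply mapping reads was not stated in the labels. A tag in the alignment names of the file headers may stand for a limit to uniquely aligned reads, but it is not spelled out. A missing peak at repeated copies, here, at the 5S genes or at the locus of 15 genes on chromosome 1, is therefore uncertain. The part of read mapping was not tested.

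By chromosome, the share of tRNA genes with a summit within 1 kb ran from 0 of 8 on chromosome 4 and 4 of 53 on chromosome 6 (7.55%) to 8 of 10 on chromosome 5 (80.0%). Chromosome 13 had 105 tRNA genes, some of them near replication histone genes. A summit lay within 1 kb of 35 of the 105 (33.3%, interval 24.4 to 43.2), and 28 of the 127 summits (22.0%) lay there. Their values were low, with a median strongest peak of 4.14 per gene and a highest of 9.32. Chromosomes 1, 3 and 11, with 37, 40 and 47 genes, had 35.1%, 35.0% and 44.7%.

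The loci with most summits within 10 kb had 7 each. On chromosome 1, 5 tRNA genes at 171101838 to 171111515, for leucine, aspartate, glycine, glutamate and valine, had 7 summits with fold enrichments of 3.46 to 6.16, and 4 of these lay within 1 kb. All 5 genes had a summit within 1 kb, and no coding end lay within 1 kb of any of the 7. On chromosome 11, the cysteine genes n-TCgca56 and n-TCgca51 at 97797072 to 97798977 lie beside the end of Lasp1 at 97799005, and their 7 summits ran from 3.93 to 14.6. The 4 beyond 1 kb, at 2850 to 9262 bp, lay inside Lasp1 and had 6.61, 10.4, 14.6 and 12.3. Those at 212 and 76 bp had 3.93 and 4.18, and that at 727 bp, also inside Lasp1, had 11.0. The highest values at this locus, 14.6 and 12.3, thus lay inside the coding gene and beyond 1 kb of the tRNA genes. The lowest were those at 212 and 76 bp.

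A further 4 loci had 6 summits. At 69110465 to 69125248 on chromosome 11, 7 tRNA genes near Hes7 and the lipoxygenase gene Aloxe3 had fold enrichments of 3.57 to 11.2. The summit inside the glutamine gene n-TQctg6 had 3.57 and that 83 bp from n-TKctt27 had 3.66. The locus of 14 genes on chromosome 13 (23425646 to 23453514), 5 of them for tyrosine, ran from 3.28 to 8.48. The locus on chromosome 3 (96399059 to 96410140) ran from 4.04 to 6.39. The single gene n-TIaat16 on chromosome 7 had the Plekhg2 peak of 26.1 and 5 others from 3.30 to 10.4.

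**Figure D5:**
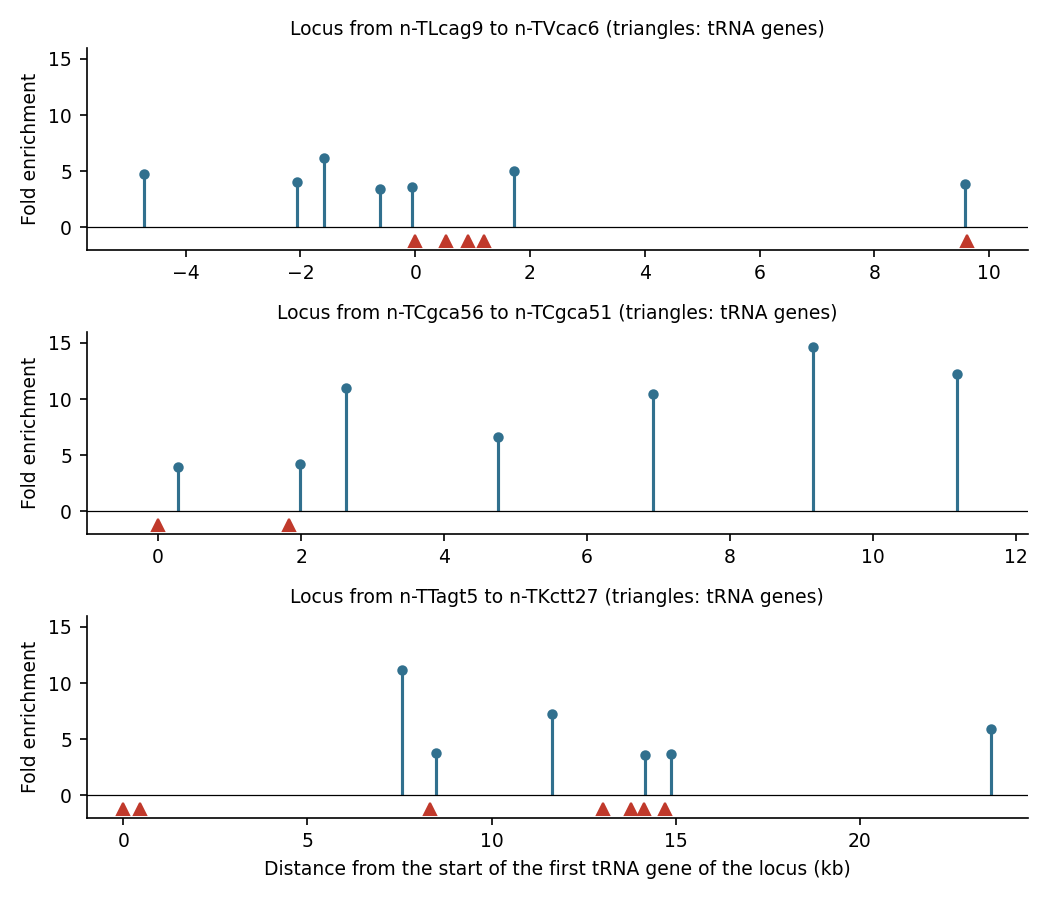
Fold enrichment of each V5-KLF5 summit (stems) at 3 tRNA loci, by distance in kb from the start of the first tRNA gene (triangles mark tRNA genes). The top and bottom loci hold mostly low summits of 3.46 to 6.16 and 3.57 to 11.2, and in the middle locus the 4 summits farthest to the right lie inside Lasp1.

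Genes that make and use tRNA were described in the same way, with a summit counted within 1 kb of a gene end. Of the symbols listed, 72 of 74 were found on these chromosomes. For the transcription machinery, 23 of 25 genes had a summit (92.0%, interval 74.0 to 99.0), beside 52.7% of all protein-coding genes, with a median strongest peak of 7.43, beside 6.13. Among the Pol III subunits 12 of 13 had one, led by Polr1d and Crcp with 15.5 and 13.7, then Polr3g with 11.2 and Polr3d with 10.8. Polr1d is shared with Pol I. Polr3k had no summit within 10 kb. Among the factors and the repressor Maf1, 11 of 12 had one, led by Gtf3a, the 5S rRNA gene factor, with 30.7. The TFIIIC subunit genes Gtf3c4 and Gtf3c5 had 13.0 and 9.23, and Tbp, the TATA-binding protein gene, had 11.8. Gtf3c1 had none within 1 kb and 6.62 within 10 kb.

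Of the 20 cytosolic aminoacyl-tRNA synthetase genes, whose products load tRNA with amino acids, 15 had a summit within 1 kb (75.0%, interval 50.9 to 91.3, which includes the 52.7% of all protein-coding genes). They were led by Sars with 23.5, Wars with 13.4, Yars with 12.1 and Mars1 with 11.2. Aars, Eprs, Farsa, Farsb and Rars had none within 1 kb. Of 17 tRNA processing genes 13 had one (76.5%, interval 50.1 to 93.2, also including that share), led by the splicing endonuclease gene Tsen54 with 10.4, the RNase P and MRP subunit genes Rpp25 with 9.64 and Pop7 with 9.61, and the tRNA export factor gene Xpot with 8.95. Ssb, Rpp30, Rpp40 and Tsen34 had none within 1 kb. Some of these summits, such as those at 991 bp from Rpp25, 818 bp from Tsen54 and 797 bp from Mars1, lay far from the gene end, and whether they belong to a neighbouring gene was not tested. Among 10 other Pol III transcripts 7 had a summit within 1 kb (70.0%, interval 34.8 to 93.3), beside 6.93% of small nuclear RNA genes and 52.7% of protein-coding genes. They were led by Bc1 with 11.2, and by Rmrp with 10.6 and Rpph1 with 10.3, the RNA parts of RNase MRP and RNase P. Rny1 had 6.74, and Rny3, Vaultrc5 and Rnu6 had none. The median strongest peak of the machinery genes, 7.43, stood above that of the tRNA genes, 4.76, and no test of this difference was made with 1 library. Machinery genes were searched around both ends and tRNA genes in a single joined window, so the lengths searched were unlike.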

How the data were processed

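The data are peak lists of single ChIP-seq libraries. Per the file headers, the authors called peaks with MACS2 2.1.0.20140616 for each library against the input of the same cells, extending tags to 250 bp, keeping 1 tag per position, with a q-value cutoff of 0.05. The submitters' processing notes name Bowtie 0.12.8 and the mm10 build. The treatment of multiply mapping reads was not stated. The authors deposited, per peak, the pileup signal at the summit, −log10 p-values and −log10 q-values, and the fold enrichment. This deposited ratio sets (pileup + 1) against (input background + 1). These values described, ranked and filtered peaks within 1 list. The V5-KLF5 library kept 23.2 M tags after duplicates were removed, the IgG library 24.5 M and the untagged V5 library 21.8 M. Lists hold no expression, so the labelled cell type was not checked.

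Distances from each summit to the nearest tRNA gene and to the nearest end of a protein-coding gene were computed in Python 3.11.15 (pandas 2.3.3, scipy 1.17.1) with the RefSeq gene table of GRCm38.p6, whose chromosomes are those of mm10. Genes of scaffolds and patches were left out by dropping table rows after the assembled chromosomes and starts below 3 Mb. That table gives no strand, exons or transcripts, so ends hold starts and 3′ ends alike. The input background was recovered from pileup and fold enrichment. Distance code was tested on simulated data. With 1 library per group no test was run. Intervals of shares are exact Clopper-Pearson, of counts exact Poisson and of medians from order statistics, all at 95%. The planned density over whole chromosomes was replaced by windows up to 100 kb from tRNA genes, as chromosome lengths were not used here. Members and gene lists were chosen with earlier results of these data known. Summits named singly were, within 1 kb, the 12 strongest without and the 8 strongest with a coding end and the 3 weakest, then the 8 strongest at 1 to 10 kb, those nearest each limit, the 3 on the highest background, and those of the loci with most summits. From each gene list the 4 strongest and up to 5 without a summit were named. The alternatives are in the closing section.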

Additional observations from a re-analysis of the deposited data

How the results depend on the processing

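The counts depend on the calling threshold. At a −log10 q of at least 5, the share of tRNA genes with a summit was 29.5% within 1 kb and 61.1% within 10 kb, the median fold enrichment 5.17 within 1 kb and 5.59 within 10 kb (all peaks 5.86), and the density 159 per Mb within 1 kb and 41.4 at 1 to 10 kb. At a −log10 q of at least 10, there were 47 summits within 1 kb and 118 within 10 kb, the shares of tRNA genes were 14.8% and 40.7%, the medians 7.81 and 7.84 (all peaks 7.59), the densities 74.1 and 23.7 per Mb, and 40.4% of summits within 1 kb had a coding end within 1 kb (all peaks 29.9%). With peaks under 5-fold left out, there were 54 and 134 summits, shares of 16.8% and 44.8%, and densities of 85.1 and 26.7 per Mb. In place of fold enrichment, the pileup had a median of 22 in both groups (all peaks 24). With an inner distance of 500 bp, 29.3% of tRNA genes had a summit, at 287 per Mb, and with 2 kb the density was 132 per Mb. With an outer distance of 5 kb there were 189 summits, 54.4% of tRNA genes and 40.4 per Mb. Counting loci once gave 52.8% within 1 kb. Leaving out cysteine genes, an alternative chosen after the data were seen, gave 77.5% within 10 kb. Leaving out peaks on a high input background, and using the nearest peak edge in place of the summit, moved none of the 11 results beyond its counting interval, or beyond 1.5 times for the counts. The density within 1 kb was 3.82 times that at 1 to 10 kb, and 3.13 times at a −log10 q of at least 10. No paired analysis was possible because each group has 1 library. Depth limits these lists to called peaks.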
